A study of Caenorhabditis elegans with 15 samples.

Results

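The fatty acid elongases of Caenorhabditis elegans were examined in whole worms raised with cyanobacterial or lake water material. They were chosen by gene name, as every probe set that the array annotation gives to one of the genes elo-1 to elo-9. A probe set is the group of short probes on an Affymetrix array that together report 1 transcript. Of the 9 genes, 8 had a probe set, 1 each, so the elongases were 8 of the 17118 genes named by a probe set of their own; the annotation used here pairs none with elo-8. Gene IDs of all 8 matched the current gene table. The probe sets of elo-5 and elo-6 carry the suffix _s_at, which on these arrays marks probes that match more than 1 transcript, so their signal may include a related RNA.

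All worms were N2, the standard wild type, grown at 20 °C on NGM agar with the bacterial food OP50 and collected at day 1 of adulthood after exposure for their whole life. There were 5 groups of 3 biological replicates, each hybridised to 1 array. The first was given filtered Microcystis aeruginosa, a cyanobacterium grown in batch culture, at 40% of the culture's original AOBr content. The second received Z-medium and was the control of the culture. The October and August groups received filtrate of Lake Stößensee taken in those months, at 200% of the original content, and the last group received water, the control of both lake samples. Lake and culture material was filtered and lyophilised, and the labels leave out how the water and Z-medium controls were handled. Whole worms were used, so more or less RNA per cell cannot be told apart from more or fewer cells of a type.

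Elongases carry out the condensing step of the cycle that lengthens fatty acids on the endoplasmic reticulum, adding a pair of carbons from malonyl-CoA to an acyl-CoA. A ketoacyl reductase, a dehydratase and an enoyl reductase then complete the cycle, and desaturases act between rounds. In worms, elo-1 and elo-2 lengthen polyunsaturated acids on the way to arachidonic and eicosapentaenoic acid, and elo-2 also lengthens palmitic acid. The monomethyl branched-chain fatty acids, which start from the breakdown of leucine, need elo-5, and elo-6 lengthens the shorter of them to the longer. Larvae that cannot make these branched acids stop growing. The other members carry the name by sequence similarity, and no role is given for them here.

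Values are array signals on a linear scale, and changes are differences of mean log2 signal with their model standard error (SE). A change passed the test at a limma adjusted p under 0.05 over the 13529 probe sets tested. These were the probe sets whose mean log2 signal was at or above 5.86, a signal of 57.9. All 8 elongase probe sets were above that level. On the array scale the probe sets of elo-1, elo-2, elo-5 and elo-6 gave group means between 4257 and 9075. Those of elo-3, elo-4, elo-7 and elo-9 gave group means between 48.3 and 243, much nearer to the filter. Signals of different probe sets are not compared as levels. The bright and dim probe sets differed in precision: a log2 change between 2 groups had an SE of 0.08 to 0.10 for the first set and of 0.21 to 0.40 for the second.

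The arrays of 1 group correlated at 0.955 to 0.967 over all non-control probe sets, and median array signals were 99.2 to 112.9. The replicate 1 arrays of Z-medium, October, August and water stood apart on the first principal component, at -28.9 to -21.8. The other 11 lay at -0.20 or above. At the opposite end were culture replicates 2 and 3, at 26.7 and 36.1, so this component also separates culture arrays. Culture replicate 1, at 11.96, did not lie with the other replicate 1 arrays. Results are also given without the 5 replicate 1 arrays, which leaves out culture replicate 1 too. Among the elongases, elo-3 had a higher log2 signal on replicate 1 than on the mean of the other replicates in 5 of 5 groups (mean difference 0.70), and elo-4 in 4 of 5 (0.35). For elo-1, elo-2, elo-5 and elo-6 the mean difference lay between -0.09 and 0.11, but it averages groups with opposite signs. For elo-5 the difference was 0.14 in the culture and -0.19 in Z-medium, and for elo-1 it was 0.21 and -0.16. For elo-6 it was 0.08 and 0.28, and for elo-2 it reached -0.37 in October. The brightest marker probe sets of the whole animal were those of the yolk genes vit-4, vit-5 and vit-6 and the cuticle gene sqt-3, by signal and not by transcript level.

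**Figure D1:**
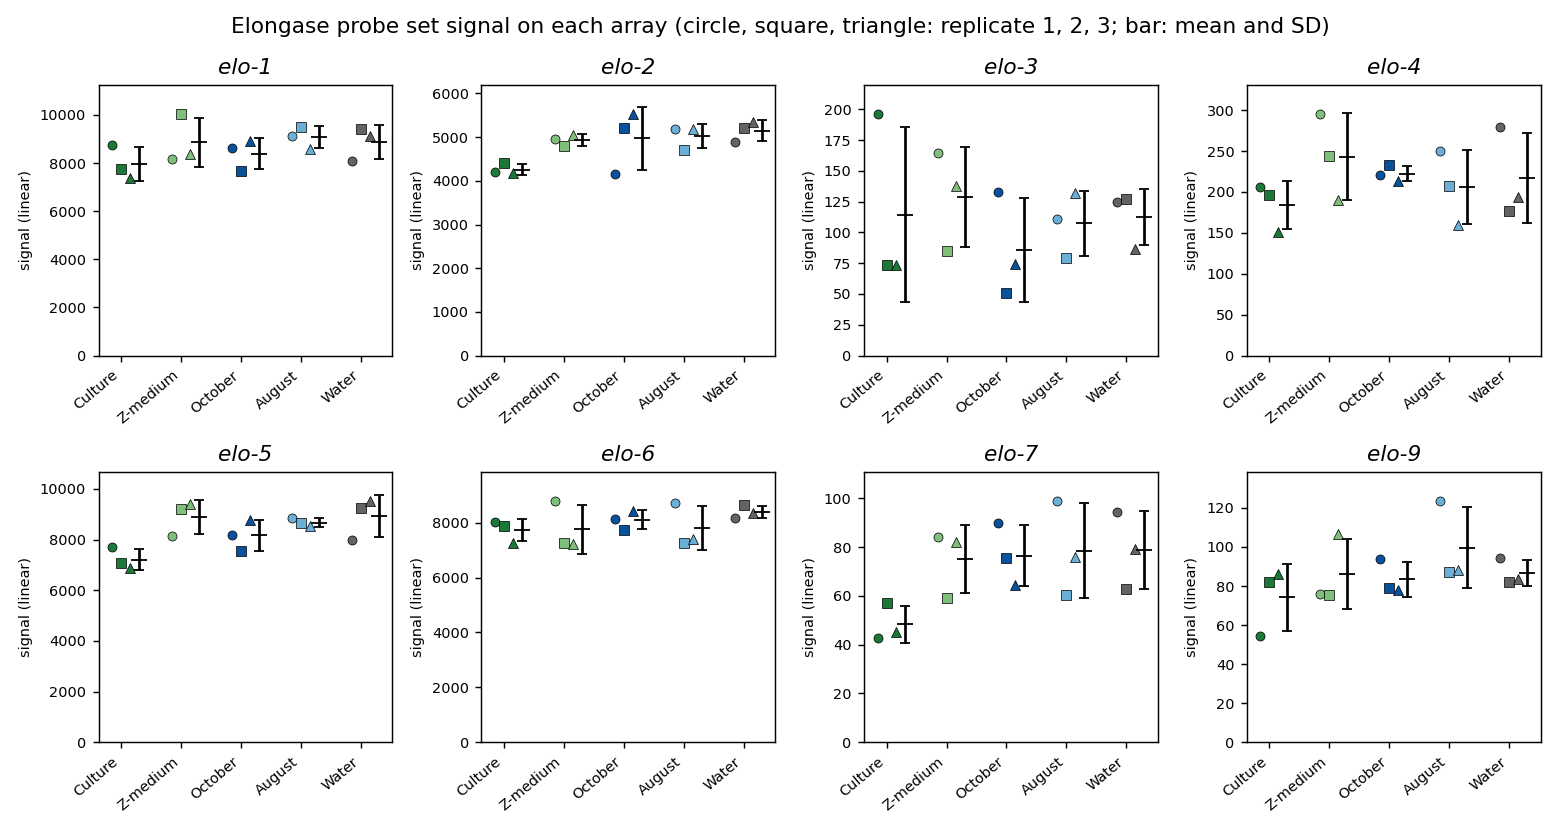
Linear array signal of the 8 elongase probe sets in each group, with 1 point per array and the mean with its SD beside the points (n = 3). The culture arrays lie below the Z-medium arrays without overlap for elo-2, elo-5 and elo-7, and the groups overlap for the other 5 genes.

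The M. aeruginosa culture was set against Z-medium to ask how exposure to the cyanobacterium changes transcript levels. No elongase passed the test, while the culture arrays lay wholly below the Z-medium arrays for 3 of the 8: elo-2, elo-5 and elo-7. Of these elo-5, needed for branched-chain fatty acids, had the smallest p. Its paralog elo-6 had a log2 change of 0.00, and elo-1 had -0.15. The median log2 change of the 8 elongases was -0.26, beside 0.00 over all probe sets tested. Of the 8, 8 were negative, counting elo-6 at only -0.0015, against 49.2% of all probe sets.

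In limma, 0 of the 8 elongases passed, where 209 of the 13529 probe sets did, a share of 1.54%. At an unadjusted p under 0.05 there were 3 elongases, against 2063 of all probe sets, or 15.2%. Wholly lower culture arrays, as for these 3 elongases, were found for 11.3% of all probe sets tested. Median scaling of the arrays moved the median change of all probe sets up by 0.11 on the log2 scale. Under it 7 of 8 elongases remained negative, with a median of -0.15 beside 0.11 for all probe sets, and elo-6 became positive (0.11), as it also did under quantile normalization (0.05).

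For elo-5 the signal was 7689, 7064 and 6872 on the culture arrays, against 8144, 9187 and 9391 on the Z-medium arrays. Each culture array was below each Z-medium array. The mean was 7208 ± 427 in the culture and 8907 ± 669 in Z-medium (SD, n = 3), which is 0.810-fold by mean log2 signal. The log2 change was -0.30 ± 0.08 (SE; 95% interval -0.48 to -0.13, not adjusted for the number of genes; limma adjusted p = 0.0854), lower in 3 of 3 arrays. Without the 5 replicate 1 arrays elo-5 passed, with a log2 change of -0.41 ± 0.08 and an adjusted p of 0.0162. Among the other settings with Z-medium as control, apart from the block on replicate number given under the processing alternatives, the adjusted p lay between 0.0668 and 0.357. The log2 change was then -0.37 to -0.19.

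From highest to lowest, the groups stood in the order water, Z-medium, August, October and culture for elo-5, with overlap between each pair of neighbours in that order. Group means were 8160 ± 605 in October, 8672 ± 169 in August and 8926 ± 814 in water. Of the 12 arrays outside the culture, 11 lay above all 3 culture arrays; the exception was an October array at 7555. Against water in place of Z-medium, which shares the culture arrays and so is not a separate result, the log2 change was -0.31 ± 0.08 (adjusted p = 0.0903).

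For elo-6, the downstream enzyme of the same branched-chain pathway, signals ranged from 7263 to 8009 in the culture, against 7211 to 8798 in Z-medium. The groups overlapped, and the log2 change was 0.00 ± 0.09 (95% interval -0.19 to 0.19; adjusted p = 0.996). The gene lies near elo-5, with 3 protein-coding genes between them in the WBcel235 annotation. The log2 ratio of the elo-5 to the elo-6 signal within an array was -0.06, -0.16 and -0.08 in the culture, against -0.11, 0.34 and 0.38 in Z-medium. It was lower by 0.30 on average in the culture, but the Z-medium replicate 1 array lay within the culture values. An exact two-sided permutation test over the 6 arrays gave p = 0.30. With a smallest possible p of 0.10, this test could not have passed, so whether elo-5 and elo-6 differ in response is not settled by it.

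For elo-2, which lengthens palmitic and polyunsaturated acids, the signal was 4192, 4402 and 4175 in the culture, against 4965, 4793 and 5056 in Z-medium. The 3 culture arrays were close together and each was below each Z-medium array. The mean was 4257 ± 127 in the culture and 4938 ± 133 in Z-medium (SD, n = 3), or 0.862-fold (log2 change -0.21 ± 0.09; 95% interval -0.41 to -0.02; adjusted p = 0.270). An October array, replicate 1, was lower still, at 4161, so the culture was not separate from every other array.

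For elo-1, the other elongase of polyunsaturated acids, signals ranged from 7389 to 8735 in the culture, against 8188 to 10044 in Z-medium. The groups overlapped, with a log2 change of -0.15 ± 0.10 (adjusted p = 0.459). Without the 5 replicate 1 arrays the log2 change of elo-1 was -0.28 ± 0.10, which also did not pass (adjusted p = 0.190).

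The dim probe set of elo-7 had the largest change in size among the 8 elongases. Its signal was 42.7, 56.9 and 45.3 in the culture, against 84.2, 59.1 and 82.0 in Z-medium. All 12 arrays outside the culture were above the 3 culture arrays, and the lowest of them was Z-medium replicate 2 at 59.1. The log2 change was -0.63 ± 0.24 (95% interval -1.15 to -0.11; adjusted p = 0.228). All 3 culture arrays were below the filter level of 57.9, where the files give no background, and with the culture mean set at that level the log2 change is -0.36. Without the 5 replicate 1 arrays it was -0.46 ± 0.29. In the WBcel235 annotation elo-7 is the next protein-coding gene to elo-1, with 0 genes between, and the 2 probe sets correlated at 0.04 over the 15 arrays, or -0.60 with the group means removed.

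The remaining dim elongases did not separate. Signals of elo-4 ranged from 151 to 207 in the culture, against 190 to 295 in Z-medium (log2 change -0.39 ± 0.21, adjusted p = 0.398). Those of elo-9 ranged from 54.6 to 86.0 in the culture, against 75.6 to 107 in Z-medium (-0.22 ± 0.22, adjusted p = 0.659). For elo-3 they ranged from 73.1 to 196 in the culture, against 84.9 to 165 in Z-medium (-0.29 ± 0.40, adjusted p = 0.773). In each of the 3 genes the ranges of the groups overlapped. The 95% interval of elo-3, -1.14 to 0.57, was the widest of the 8, and its change was -0.76 to -0.05 with 1 array left out.

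**Figure D2:**
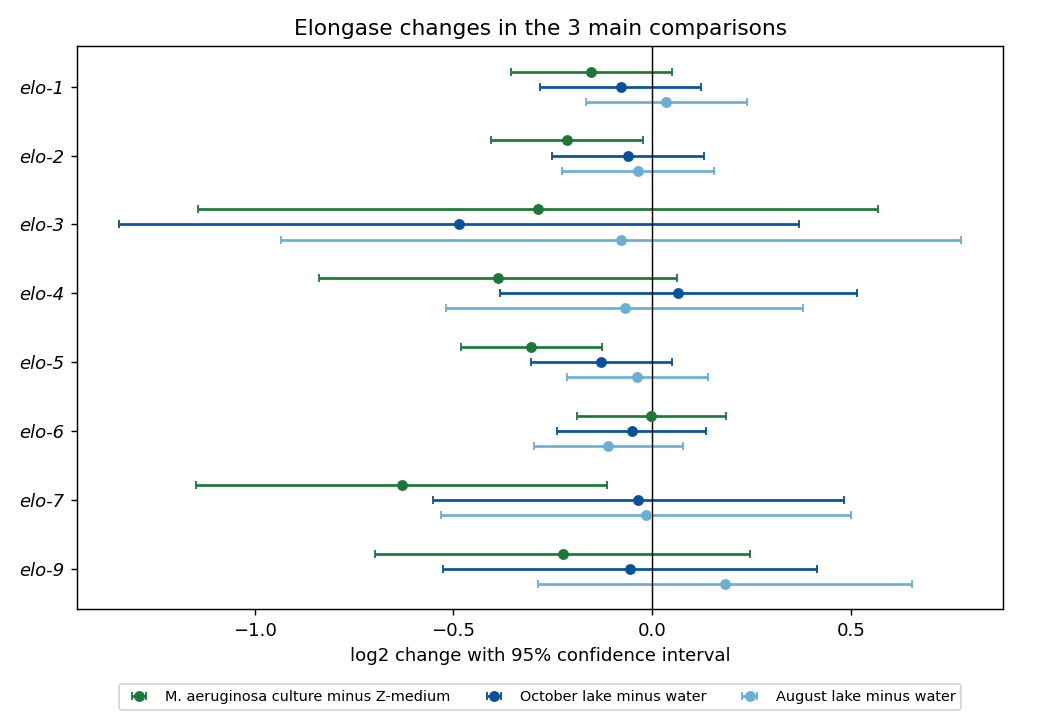
Log2 change of each elongase in the 3 main comparisons, with its 95% confidence interval from the model over all arrays (not adjusted for the number of genes). In the culture the intervals of elo-2, elo-5 and elo-7 lie below 0, and every interval of the lake comparisons includes 0.

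Of 31 marker genes tested for other tissues and stages, 2 passed between the same arrays, dpy-9 and ifb-2. Over all probe sets tested 1.54% passed and 49.2% were lower in the culture. Of 8 molting and larval cuticle genes, 8 were lower in the culture and 1 passed the test (dpy-9, a cuticle collagen). The dpy-9 probe set was dim, with a mean of 116 over the 15 arrays. Its lowest array, at 32.2, was under the filter level of 57.9. The summed signal of the 8 genes was 16627 to 27114 in the culture and 23388 to 28384 in Z-medium. Most of that sum was the signal of sqt-3, with a mean of 24057 over all arrays. Of 5 sperm genes tested, 5 were lower and 0 passed in limma, at a median log2 change of -0.58. The summed signal over 7 sperm genes was 2512 to 4419 in the culture and 3515 to 6683 in Z-medium. The sperm genes spe-9 and spe-38 were below the filter. Of 9 oocyte and eggshell genes, 9 were higher and 0 passed, at a median log2 change of 0.16. Their sum was 65262 to 69686 in the culture and 55915 to 65224 in Z-medium. Of 9 yolk and intestine genes, 4 were lower and 1 passed: ifb-2, an intermediate filament of the intestine (log2 change -0.56 ± 0.13, limma adjusted p = 0.0492). The median log2 change of these 9 was 0.01, and their sum was 97759 to 124927 in the culture and 96970 to 111964 in Z-medium. That sum was mostly the signal of the vit genes. Without the 5 replicate 1 arrays 7 of these 9 were lower, at a median of -0.11. Of the 9 oocyte and eggshell genes 7 were then higher, while all 8 molting and cuticle genes and all 5 sperm genes stayed lower. Whether these differences have a part in the elongase values was not tested.

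**Figure D3:**
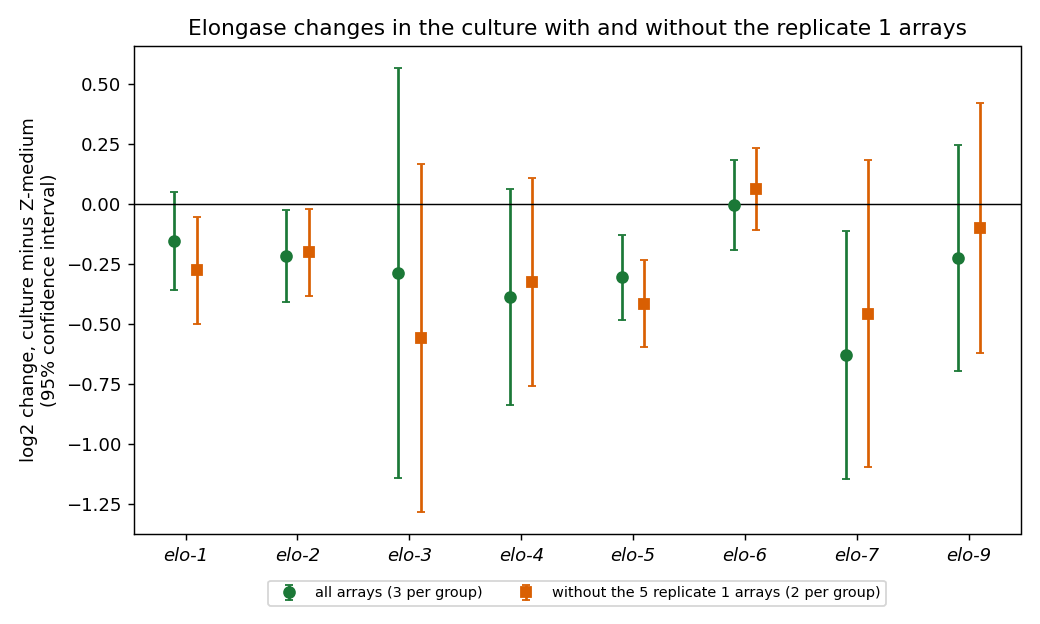
Log2 change of each elongase between the culture and Z-medium, with its 95% confidence interval, from all arrays (3 per group) and without the 5 replicate 1 arrays (2 per group). The change of elo-5 is -0.30 with all arrays and -0.41 without those of replicate 1, where it passes the test, while elo-6 stays near 0 in both.

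The October lake sample was set against water to ask how exposure to the lake filtrate changes transcript levels. In limma no elongase passed, and for none did the October arrays separate from the water arrays, as they did for 7.56% of all probe sets tested. The share of all probe sets past the test was 0% (0 of 13529), and 286 of them and 0 elongases had an unadjusted p under 0.05. The median log2 change of the elongases was -0.06, beside 0.00 for all probe sets, with 7 of 8 negative.

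For elo-5, October signals ran from 7555 to 8765 and water signals from 8002 to 9534, with a log2 change of -0.13 ± 0.08 (95% interval -0.31 to 0.05). For elo-2 they ran from 4161 to 5532 in October and from 4888 to 5352 in water, a wider spread in October around nearly the same mean (-0.06 ± 0.09). The largest change in size was that of elo-3, with a mean of 85.8 ± 42.5 in October and 113 ± 22.8 in water (-0.49 ± 0.40). Its October arrays ranged from 50.4 to 133, on both sides of every water array, and with 1 array left out the change was -0.86 to -0.16. The adjusted p of all 8 elongases was 1.00.

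The August lake sample was set against water in the same way. Again 0 of 8 elongases passed in limma, where 0.00739% of the probe sets tested, 1 of 13529, did. At an unadjusted p under 0.05 there were 0 elongases and 412 probe sets in all. No elongase had August arrays separate from water arrays, against 7.19% of all probe sets. The median log2 change was -0.04, beside -0.01 for all probe sets, with 6 of 8 negative.

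In August elo-6 ran from 7270 to 8714, against 8184 to 8642 in water, with a log2 change of -0.11 ± 0.09. For elo-9, the largest change in size in August, the mean was 99.7 ± 20.8 in August and 86.7 ± 6.79 in water (0.18 ± 0.22). That mean rested on August replicate 1, at 124, while the other August arrays were at 87.1 and 88.2. For elo-1 the August mean was 9075 ± 465 and the water mean 8868 ± 707 (0.04 ± 0.10). The adjusted p of all 8 was 1.00 in August too.

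For elo-1, elo-2, elo-5 and elo-6 the 95% intervals of both lake comparisons lay within -0.31 and 0.24 on the log2 scale, or between 0.809-fold and 1.18-fold. For elo-4, elo-7 and elo-9 they lay within -0.55 and 0.66, or between 0.682-fold and 1.57-fold. The probe set of elo-3 was less precise, with limits of -1.34 and 0.78. These limits depend on the replicate 1 arrays. Without them the October change of elo-5 was -0.21 (95% interval -0.39 to -0.03) and that of elo-3 was -0.77 (-1.50 to -0.05). The August change of elo-6 was then -0.21 (-0.38 to -0.04). These intervals exclude 0 before adjustment, but the adjusted p was 1.00 for elo-5 and elo-3 in October and 0.715 for elo-6 in August.

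The other comparisons called no elongase. Between the controls, Z-medium minus water, the log2 changes of the elongases were -0.12 (elo-6) to 0.17 (elo-4), and 0.0222% of all probe sets passed. October minus August gave -0.41 (elo-3) to 0.13 (elo-4), with 0.0148% of all probe sets past the test. Whether the culture acted differently from the lake water was tested as its effect less the average effect of both lake samples. It was -0.22 ± 0.11 for elo-5 (adjusted p = 0.613), -0.61 ± 0.32 for elo-7 (0.638) and 0.08 ± 0.12 for elo-6 (0.888), and 0.266% of all probe sets passed. A larger effect of the culture than of the lake water was therefore not shown for any elongase. The culture was given at 40% and the lake samples at 200% of the original content, each beside its own control. In these 3 comparisons 0 elongases had an unadjusted p under 0.05 in limma. Of all probe sets, 2.34% did for Z-medium minus water, 2.59% for October minus August and 8.54% for the difference of effects.

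By mean log2 signal the culture was the lowest of the 5 groups for 7 of the 8 elongases, as it was for 31.9% of all probe sets tested. The exception was elo-3, lowest in October. The count was 5 of 8 under median scaling (21% of all probe sets), 6 under quantile normalization (27.6%) and 5 without the replicate 1 arrays (27.7%). Neighbouring groups in these orders overlapped in every gene except elo-7, where the culture lay below Z-medium. Within-group scatter (residual SD) was 0.10 to 0.12 on the log2 scale for elo-1, elo-2, elo-5 and elo-6 and 0.26 to 0.57 for the dim probe sets, against a gap between the highest and lowest group mean of 0.12 (elo-6) to 0.70 (elo-7).

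The members followed each other to different degrees across the 15 arrays, which share any difference in array quality or worm stage. The log2 signals of elo-1 and elo-5 had a Pearson r of 0.80 (Spearman's rho 0.75), and r was 0.76 with the group means removed and 0.83 without the replicate 1 arrays. So the array-to-array scatter of these genes ran together within groups. For elo-2 and elo-5, r was 0.65, and 0.22 with the group means removed. The branched-chain pair elo-5 and elo-6 had an r of 0.15. The dim pair elo-7 and elo-9 had an r of 0.70, or 0.36 without the replicate 1 arrays.

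**Figure D4:**
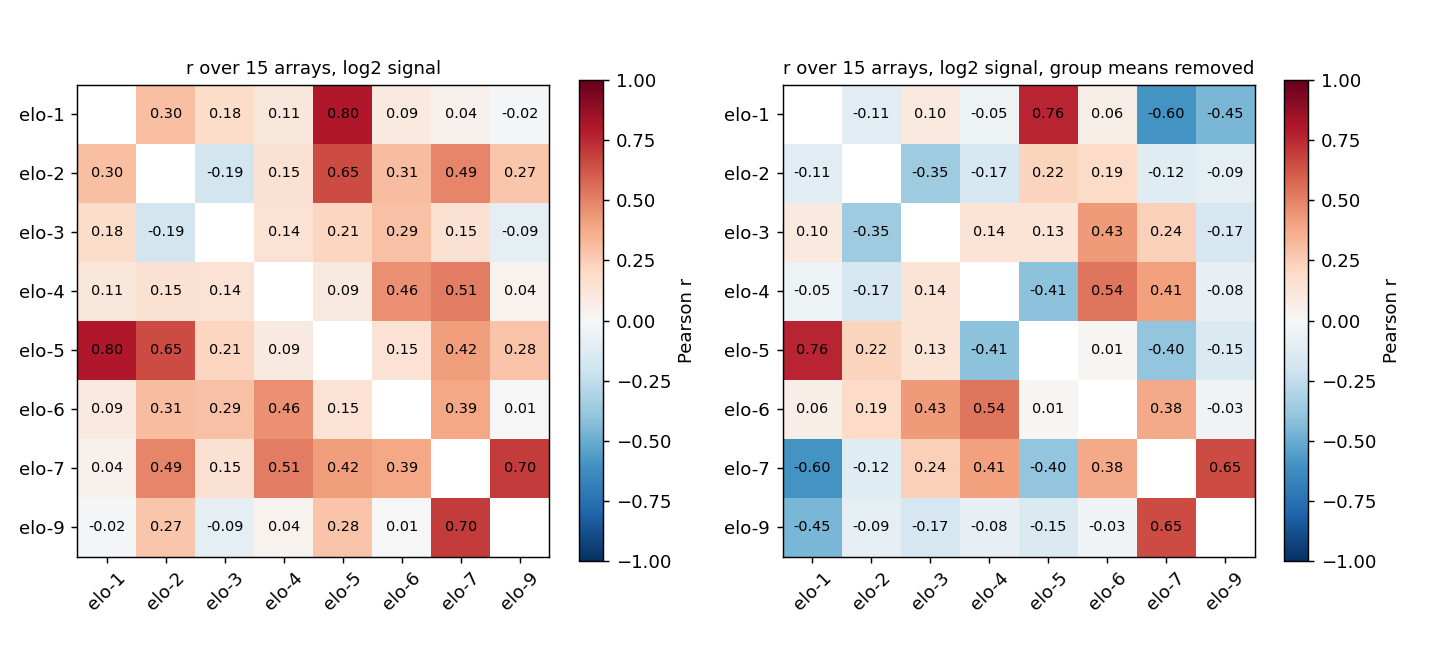
Pearson r between the log2 signals of each pair of elongases over the 15 arrays, on the left as measured and on the right with each group's mean removed. The pair elo-1 and elo-5 stands at 0.80 and 0.76, while elo-5 and elo-6 stand at 0.15 and 0.01.

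The genes most like elo-5, the elongase with the smallest p, were sought among 10258 others by Pearson r over the 15 arrays. By this choice their group means tend to follow those of elo-5. They were C17F4.7 (r = 0.88), zig-1, of a family of immunoglobulin-domain proteins (0.85), and mel-32, the serine hydroxymethyltransferase gene (0.84). With group means removed, r was 0.68 for C17F4.7, 0.59 for zig-1 and 0.71 for mel-32. Their log2 changes in the culture were -0.29 for C17F4.7, -0.55 for zig-1 and -0.30 for mel-32, and none passed. For elo-7, next by p, they were bli-5, a protease inhibitor-like gene of the cuticle (r = 0.96), D2023.4 (0.93) and fat-6, a stearoyl-CoA desaturase gene (0.91). With group means removed, r was 0.92 for bli-5, 0.89 for D2023.4 and 0.87 for fat-6.

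Around the elongases, 30 genes of fatty acid synthesis were listed, of which 27 were tested. The ketoacyl reductase-like genes stdh-2, stdh-3 and stdh-4 were below the filter. Of the 27, 1 rose in the culture, 1 fell and the remaining 25 missed the threshold, where 1.54% of all probe sets passed. Both that passed were desaturases. The median log2 change of the 27 was -0.09, beside 0.00 over all probe sets. Under median scaling the medians were 0.018 for the desaturases, 0.055 for precursor and cycle enzymes and 0.072 for regulators of lipid synthesis. All probe sets then had a median of 0.11. The gene fat-7, a stearoyl-CoA desaturase, had a signal of 1653, 1203 and 1237 in the culture, against 3172, 2592 and 2697 in Z-medium, so the groups were far apart. Its log2 change was -1.06 ± 0.12 (limma adjusted p = 1.98e-04). For fat-3, the desaturase that acts just before elo-1 and elo-2 on polyunsaturated acids, signals were 3020, 3030 and 3054 in the culture, against 2477, 2124 and 1734 in Z-medium. It rose by 0.54 ± 0.11 (adjusted p = 0.0250), but did not pass without any 1 of culture replicates 1, 2 or 3 or Z-medium replicates 2 or 3 (adjusted p = 0.0503 to 0.0871).

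In the other lists no gene passed in the culture. Among the partners of the elongation cycle, let-767, a ketoacyl reductase, hpo-8, a dehydratase, and art-1, an enoyl reductase, had log2 changes of -0.13, -0.01 and -0.06. For 7 precursor and cycle enzymes tested, the range was -0.19 (pod-2, acetyl-CoA carboxylase) to 0.14 (mlcd-1, malonyl-CoA decarboxylase). The 7 genes of branched-chain primer metabolism take in the breakdown of leucine to the primer of branched-chain acids and ivd-1, the isovaleryl-CoA dehydrogenase, which oxidises that primer. Of these 7, 7 had negative log2 changes, at a median of -0.10, but under median scaling 3 were negative and the median was 0.0076. The smallest p among them was that of acs-1, an acyl-CoA synthetase of branched-chain fatty acids, with a mean of 2374 ± 77.6 in the culture and 2855 ± 185 in Z-medium (log2 change -0.26 ± 0.08, adjusted p = 0.101). The second probe set of acs-1 gave -0.26 as well (adjusted p = 0.109). Among 6 regulators the values ran from -0.40 (nhr-80) to 0.15 (nhr-66), the smallest p being that of mdt-15, a Mediator subunit (-0.25 ± 0.14, adjusted p = 0.401). Without the 5 replicate 1 arrays fat-5 (-0.89) and nhr-80 (-0.94), a nuclear receptor that acts on desaturase genes, also passed, with adjusted p of 0.0210 and 0.0410. With replicate number as a block, acs-1 (-0.26), fat-5 (-0.85) and fat-6 (-0.29) also passed, with adjusted p of 0.0302, 0.00106 and 0.0410.

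In the lake comparisons 0 of the 27 pathway genes passed in limma, with median log2 changes of -0.02 in October and 0.00 in August. Over all probe sets the medians were 0.00 in October and -0.01 in August, and 0% and 0.00739% passed. Of the 27 genes, the nearest to passing was fat-7 in August. Its mean was 3924 ± 386 in August and 2361 ± 88.1 in water (log2 change 0.73 ± 0.12, adjusted p = 0.139). It passed when replicate number, which paired the arrays of this comparison, was a block (adjusted p = 0.00368). No elongase passed with that block in either lake comparison.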

How the data were processed

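The deposited values are probe set signal intensity on a linear scale, made with MAS5 in Affymetrix Expression Console 1.2.0.20, per the submitters' processing notes. Array means, trimmed by 2% at each end, were 500.123 to 500.137, a common scale. There are no detection calls, and since the array's genome build is not given in the sources used here, coordinates are left out. Of 22548 non-control probe sets, 20766 have 1 symbol in the platform annotation.

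Signals were taken to log2 without an offset. Probe sets at or above the 40th percentile of mean log2 signal were tested with limma 3.58.1 in R 4.3.3, with 1 mean per group over all 15 arrays (10 residual degrees of freedom), an intensity trend and Benjamini-Hochberg adjustment per comparison. The number of arrays, 3 per group, limits the precision.

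The members, lists and tests were chosen with earlier results of these data known. Elongases were given array by array where a main comparison's arrays did not overlap or its log2 change reached 0.5, pathway genes where they passed or had the smallest p of their list, and the 3 likest genes for the 2 elongases with the smallest p. Other pathway and marker genes were named after their values were seen.

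Same-numbered arrays deviated together (every correlation over 0.1) in August against water (0.53, 0.20 and 0.31), Z-medium against water and October against August, and not in the other comparisons. Alternatives were quantile normalization, median scaling, an offset of 32, no filter or the 60th percentile, fewer arrays, a block on replicate number and, chosen after seeing the data, water as the culture's control.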

Additional observations from a re-analysis of the deposited data

Results flagged for a closer look

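No elongase was set apart by a test of a difference between effects. Of the pathway genes named, fat-7 was: its culture effect minus the mean lake effect was -1.38 ± 0.16 on the log2 scale (SE; limma adjusted p = 3.74e-04). Its mean signal was also lower in October, at 2244 ± 207, than in August, at 3924 ± 386 (SD, n = 3; log2 change of October minus August -0.81 ± 0.12, adjusted p = 0.0446). Groups of 3 arrays are too small for the test of a single outlying array.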

How the results depend on the processing

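No elongase passed in any alternative, with 1 exception: elo-5 in the culture, so that the count was 1 in place of 0 without the 5 replicate 1 arrays and 1 with replicate number as a block (adjusted p = 0.0276). The numbers did not pair the arrays of that comparison (correlations of 0.36, -0.03 and 0.26). The block gave counts over all probe sets of 1245 in place of 209 in the culture, 480 in place of 36 in the culture effect less the average lake effect, 2 in place of 1 in August and 2 in place of 0 in October. Without replicate 1 arrays the culture gave 534, the difference of effects 106 and October minus August 5. The culture gave 117 with its own 2 groups alone, 89 to 229 with 1 array left out, and 181, 167 and 189 under quantile normalization, median scaling and the offset. October minus August gave 4 without a filter. Pathway genes past the test in August were 1 with the block. In the culture they were 2, against 4 without replicate 1 arrays, 5 with the block, 1 with its own 2 groups and 1 to 2 with 1 array left out. Some uncalled elongase changes crossed 0. In the culture this was elo-6 under quantile normalization (0.051), median scaling (0.11), without replicate 1 arrays (0.066) and with 1 array left out (-0.051 to 0.093). In August it was elo-1 without replicate 1 arrays (-0.036) and elo-7 under median scaling (0.0058), and in October elo-2 without replicate 1 arrays (0.025). With 1 array left out, August ranges were -0.031 to 0.080 for elo-1, -0.072 to 0.011 for elo-2, -0.26 to 0.13 for elo-3, -0.22 to 0.13 for elo-4, -0.11 to 0.012 for elo-5 and -0.20 to 0.16 for elo-7. October ranges were -0.14 to 0.062 for elo-2, -0.068 to 0.26 for elo-4, -0.19 to 0.11 for elo-7 and -0.14 to 0.0080 for elo-9. The causes were not tested. The 60th percentile filter left elo-3, elo-7 and elo-9 out.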
